A study of Homo sapiens with 6 samples.

Results

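Control-only peaks were regions of open chromatin that entered the peak list of control naive human embryonic stem (nES) cells and not that of nES cells given dimethyl α-ketoglutarate (dm-αKG). They were selected by the 2 deposited peak lists, which had been called on the same ATAC-seq libraries as the read counts: a row of the combined count table was a member when it overlapped a control interval by at least 1 bp and no dm-αKG interval. The rule held for 20063 of 171517 rows (11.7%), or 13.1% of the rows that touched the control list. Of the rest, 132751 rows lay on both lists and 18703 on the dm-αKG list alone, and 0 lay on neither. Because the rule used the contrast between control and dm-αKG, every difference in read count between the groups is given here as a description. Calls come from an edgeR fit of that contrast over the whole table, on the same reads that made the lists, and are no independent test of the members.

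The study used the established embryonic lines H9 and HNES1. Its account of the ATAC-seq and the sample titles name no line, and H9 is taken here as the likely one. Of the rows, 186 lay on chromosome Y, 168 of them on the control list, and the line and its sex were not checked. The cells were kept in the naive state in tt2iLGö medium, which holds PD0325901 (an inhibitor of MEK), CHIR99021 (of GSK3), an inhibitor of protein kinase C and human LIF. They were freed of their irradiated mouse embryonic fibroblast feeders by letting the feeders settle on gelatin, grown on laminin in low oxygen, and given for 24 h the same medium with 4 mM dm-αKG or, in the control, with none (labelled DMSO). Each group had 3 libraries, described in the study's methods as biological replicates of an experiment done once, and all 6 are taken to come from 1 cell line. How many feeder cells remained was not measured, and the reads were placed on the human genome only.

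ATAC-seq uses the transposase Tn5, which inserts sequencing adapters where DNA is not wrapped in nucleosomes, so reads pile up at gene regulatory elements (GREs) such as promoters and enhancers. In pluripotent cells many distal GREs are held open by OCT4 and SOX2, which bind side by side to a composite motif, together with KLF and TEAD factors. α-Ketoglutarate is an intermediate of the tricarboxylic acid cycle and a cosubstrate of the TET enzymes and of histone demethylases, and its dimethyl ester crosses the cell membrane. A peak list is a yes-or-no call: a region can drop from it while most of its reads remain.

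The libraries held 13025674 to 26828622 reads in peaks, and dm-αKG replicates 2 and 3 were the shallowest of the 6. The part that depth had in the membership of the lists was not tested. Replicates of one group differed beyond counting noise (chi-square per degree of freedom 1.80 to 2.16), and libraries of different groups differed more (3.23 to 5.28). The cells carried peaks at the promoters of the naive markers POU5F1, NANOG, KLF17, DPPA5, SUSD2 and TFCP2L1, with mean control counts of 271 to 746. Promoter peaks of markers of other cell types that such a culture could hold (GATA3, CDX2, KRT7, GATA4, SOX17, PDGFRA, TBXT, MIXL1, ZIC2, SFRP2 and COL1A1) had 113 to 263, and POSTN, a fibroblast marker, had none. All of these promoter peaks lay on both lists, and an open promoter does not measure expression.

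The sequences below show what single control-only peaks look like. Each is the central 200 bp of a peak, from the hg38 assembly, plus strand, 5′ to 3′, and capitals mark every match to the 16 motifs searched. The first 4 held the OCT-SOX composite motif, searched on both strands as the SOX portion ATTGT and the OCT portion ATGCAAA with 1 base of any kind between them and 1 mismatch allowed. GRIN2D, MOV10 and SOX2 were the members with the most control reads among those with this motif. The BMP4 peak was chosen after its values were seen.
GRIN2D, chr19:48400572-48400771: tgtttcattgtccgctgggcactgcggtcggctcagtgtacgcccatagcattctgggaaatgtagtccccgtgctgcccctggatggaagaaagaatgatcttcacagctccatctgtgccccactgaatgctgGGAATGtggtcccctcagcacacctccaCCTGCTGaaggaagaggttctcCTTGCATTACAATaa
MOV10, chr1:112672080-112672279: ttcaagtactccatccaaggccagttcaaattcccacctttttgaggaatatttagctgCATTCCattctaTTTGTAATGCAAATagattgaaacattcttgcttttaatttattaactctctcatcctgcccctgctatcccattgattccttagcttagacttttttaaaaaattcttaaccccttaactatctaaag
SOX2, chr3:181716030-181716229: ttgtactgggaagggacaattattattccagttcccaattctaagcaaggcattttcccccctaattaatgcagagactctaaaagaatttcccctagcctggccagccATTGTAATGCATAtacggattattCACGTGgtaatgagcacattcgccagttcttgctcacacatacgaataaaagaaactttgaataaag
BMP4, chr14:53982705-53982904: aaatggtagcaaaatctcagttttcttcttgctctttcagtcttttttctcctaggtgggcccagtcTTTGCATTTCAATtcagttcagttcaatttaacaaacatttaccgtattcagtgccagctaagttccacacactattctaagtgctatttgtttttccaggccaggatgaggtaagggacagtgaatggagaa

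Among the 8 deepest losses listed below, the peaks in TYW1B and near CBX7 held CCAATCA, the motif of the NF-Y complex, and the first also held ATGCAAAT, the motif of OCT factors. DRD3 is shown for GGGTGTGG, a motif of KLF factors, and TEAD1 for GGAATG, the motif of the TEAD factors that this gene itself encodes (chosen after its values were seen). PTPN1 is shown as the strongest control-only peak and MAN1C1 as the one that was called more accessible with dm-αKG. A match is a run of letters and not a measured binding site.
TYW1B, chr7:72817799-72817998: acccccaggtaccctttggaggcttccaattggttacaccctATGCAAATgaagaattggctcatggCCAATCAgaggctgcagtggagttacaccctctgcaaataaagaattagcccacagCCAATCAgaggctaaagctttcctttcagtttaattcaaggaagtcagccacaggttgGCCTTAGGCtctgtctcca
CBX7, chr22:39184023-39184222: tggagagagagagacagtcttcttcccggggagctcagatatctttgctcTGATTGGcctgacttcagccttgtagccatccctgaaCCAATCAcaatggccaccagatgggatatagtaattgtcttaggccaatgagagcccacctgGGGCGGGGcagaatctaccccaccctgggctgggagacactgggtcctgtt
DRD3, chr3:114155609-114155808: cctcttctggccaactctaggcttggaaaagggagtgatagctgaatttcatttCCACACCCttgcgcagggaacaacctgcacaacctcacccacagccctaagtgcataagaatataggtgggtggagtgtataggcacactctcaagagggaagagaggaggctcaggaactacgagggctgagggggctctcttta
TEAD1, chr11:12687920-12688119: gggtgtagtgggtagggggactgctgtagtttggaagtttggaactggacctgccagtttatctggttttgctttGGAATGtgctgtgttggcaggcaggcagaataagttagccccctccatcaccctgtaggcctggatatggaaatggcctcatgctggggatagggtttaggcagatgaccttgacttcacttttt
PTPN1, chr20:50413228-50413427: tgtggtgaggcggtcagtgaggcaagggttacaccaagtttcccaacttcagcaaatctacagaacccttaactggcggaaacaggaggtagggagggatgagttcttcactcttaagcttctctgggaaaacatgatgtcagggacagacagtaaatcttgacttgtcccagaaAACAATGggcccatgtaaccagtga
MAN1C1, chr1:25688394-25688593: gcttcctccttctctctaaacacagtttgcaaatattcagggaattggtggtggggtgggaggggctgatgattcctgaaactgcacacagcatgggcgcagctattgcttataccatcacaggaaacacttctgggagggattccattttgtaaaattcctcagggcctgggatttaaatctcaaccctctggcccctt

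Control-only peaks were weak, and with dm-αKG they became weaker without vanishing. Counts were scaled by edgeR's TMM factors to the same library size and are called normalised read counts. The median control-only peak had 35.8, 36.2 and 36.4 normalised reads in the 3 control libraries and 25.8, 25.7 and 26.9 in the 3 dm-αKG libraries, so the groups did not overlap. The median peak on both lists had 84.6 to 85.3 in all 6 libraries. Peaks on the dm-αKG list alone had 26.8 to 27.9 in control and 35.1 to 35.9 with dm-αKG, so their levels in the treated cells were close to those of the control-only peaks in control cells. Scaled to 200 bp of width, the median control-only peak went from 35.4 to 26.0 reads, against 78.2 and 78.3 for peaks on both lists.

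Together the control-only peaks took 4.35%, 4.43% and 4.43% of the peak reads in the control libraries (4.41% ± 0.0455, SD, n = 3) and 3.19%, 3.15% and 3.26% in the dm-αKG libraries (3.20% ± 0.0548). The 3 control values all lay above the 3 dm-αKG values. Peaks on both lists took 92.6% and 92.8% on average, and the dm-αKG list alone 3.03% and 4.02%.

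The median log2 fold change (dm-αKG over control) of the 20063 control-only peaks was -0.47, which is 0.723 times the control level, with quartiles of -0.80 and -0.17. It was 0.02 for peaks on both lists, 0.40 for the dm-αKG list alone and 0.01 over the whole table. The fold change was below 0 in 17308 control-only peaks (86.3%) and above 0 in 2755, and its size was under 0.5 in 10417 (51.9%). The range ran from -3.56 to 1.16. All 20063 were fitted, and 15265 (76.1%) had at least 10 reads in every library.

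**Figure D1:**
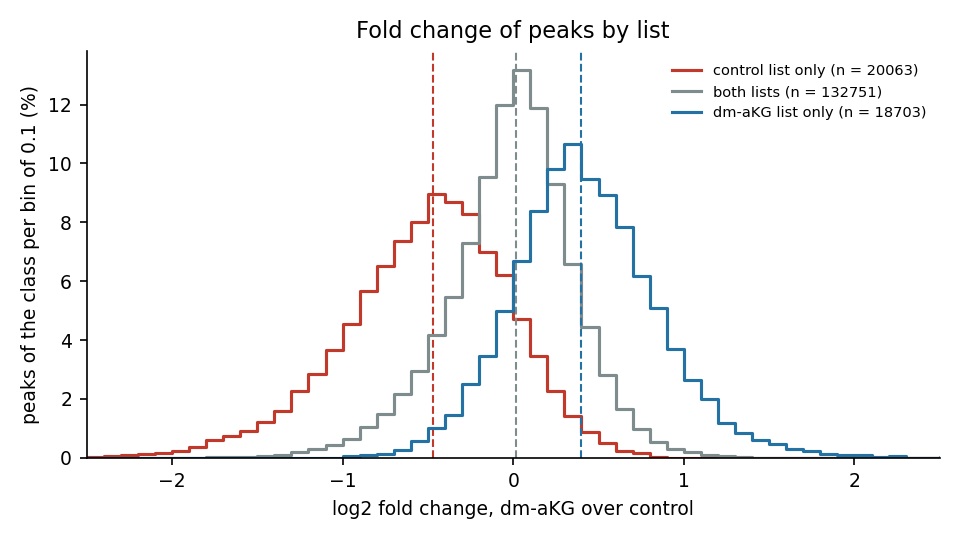
Share of peaks per bin of log2 fold change (dm-αKG over control; x axis from -2.5 to 2.5) for peaks on the control list only (red), on both lists (grey) and on the dm-αKG list only (blue), with dashed lines at the medians of -0.47, 0.02 and 0.40. The 3 distributions overlap broadly, and the red one reaches past 0.

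At an edgeR adjusted p below 0.01 and a log2 fold change beyond 1, 2097 control-only peaks (10.5%) were called less accessible with dm-αKG, against 1.96% of the whole table. DESeq2 with default parameters called 1359 at the same thresholds. Only 1 was called more accessible, against 0.782%. In 7830 (39.0%) all 3 control values lay above all 3 dm-αKG values, against 16.9% of the table, and in 232 (1.16%) the reverse held, against 15.5%. Since the lists were called on the same reads, nothing is read from the gap to these background shares. Control-only peaks made up 62.3% of the 3365 peaks called less accessible in the table. Another 1267 lay on both lists and 1 on the dm-αKG list alone.

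Many control-only peaks kept as many reads with dm-αKG as regions that were called peaks there. Of the 20063, 9925 (49.5%) had a dm-αKG mean at or above the lower quartile of the peaks on the dm-αKG list alone (26.5 reads), and 5679 (28.3%) reached their median of 35.3. In 19202 (95.7%) every dm-αKG library held more than 3 reads, and in 0 were all 3 dm-αKG libraries empty.

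The strongest control-only peak lay in an intergenic stretch 96993 bp from the start of PTPN1, which encodes the phosphatase PTP1B (chr20:50413142-50413513). It had 260, 335 and 273 normalised reads in control and 79.6, 66.7 and 79.3 with dm-αKG, for a log2 fold change of -1.94 (SE 0.14). All control libraries stood more than 3 times above all dm-αKG libraries, and its central sequence, printed above, held 1 match to AACAATG, a SOX motif. The next in strength lay in an intron of DCAF4, a substrate receptor of a ubiquitin ligase, 599 bp from its start. It kept most of its reads, with 283, 296 and 283 in control and 194, 192 and 168 with dm-αKG (log2 fold change -0.63, SE 0.11). The peak 6541 bp from TNIP2, which encodes a partner of the NF-κB regulator A20, went from 242, 289 and 281 to 105, 106 and 148. Peaks near CELF4 (an RNA-binding protein) and in RCC1 (the nucleotide exchange factor of Ran) had control means of 249 and 244 and dm-αKG means of 130 and 160. In all 5 the control libraries lay above the dm-αKG libraries, and PTPN1 and TNIP2 were called less accessible.

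The deepest losses were sought among the 1915 control-only peaks (9.54%) whose mean count reached the median of the table, 65.4 reads. The 8 deepest had log2 fold changes of -1.99 to -2.34, and all were called less accessible. Of these, 7 are described here. At chr11:66573184-66573383, 4405 bp from CTSF (a lysosomal protease), counts were 94.8, 127 and 114 in control and 13.6, 26.9 and 31.4 with dm-αKG. The intronic peak of FAM227A (chr22:38618460-38618659) had 131, 132 and 115, then 28.7, 23.1 and 25.4. In TYW1B, a gene for a tRNA-modifying enzyme, the peak at chr7:72817799-72817998 had 154, 158 and 165, then 35.9, 32.1 and 41.9. In each of these 3 the lowest control value was more than 3 times the highest dm-αKG value. The others lay in SLC2A14 (a glucose transporter), ARHGAP10 (a GTPase-activating protein), TBCD (a tubulin folding factor) and 31443 bp from CBX7, a subunit of Polycomb repressive complex 1. The CBX7 peak went from 119, 135 and 97.2 reads to 28.7, 32.1 and 28.4.

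Some control-only peaks, 2755 of the 20063, had a fold change above 0, although it was the dm-αKG list that they were missing from. The 5 highest were sought, like the losses, among members whose mean count reached 65.4 reads. Members with fewer reads had fold changes of up to 1.16. The intronic peak of MAN1C1, which encodes a Golgi mannosidase (chr1:25688394-25688593), had 46.5, 51.0 and 46.2 reads in control and 96.8, 97.5 and 97.3 with dm-αKG (log2 fold change 1.01, SE 0.19). It was the sole member called more accessible, its nearest dm-αKG interval was 4050 bp away, and its sequence held none of the motifs. The call lay at the threshold: without control replicate 1 or control replicate 3 the log2 fold change was 1.00 or 0.99, and no member was called more accessible. The next in order lay in ANKS1A, which encodes an ankyrin-repeat adaptor, with 49.2, 47.7 and 60.7 reads in control and 70.3, 98.8 and 73.3 with dm-αKG. The peaks 606 bp from the microRNA gene MIR124-3, 788 bp from B4GALNT4 and 1038 bp from NAT14 had log2 fold changes of 0.59, 0.56 and 0.55. Of these 5 peaks the groups overlapped only at B4GALNT4.

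**Figure D2:**
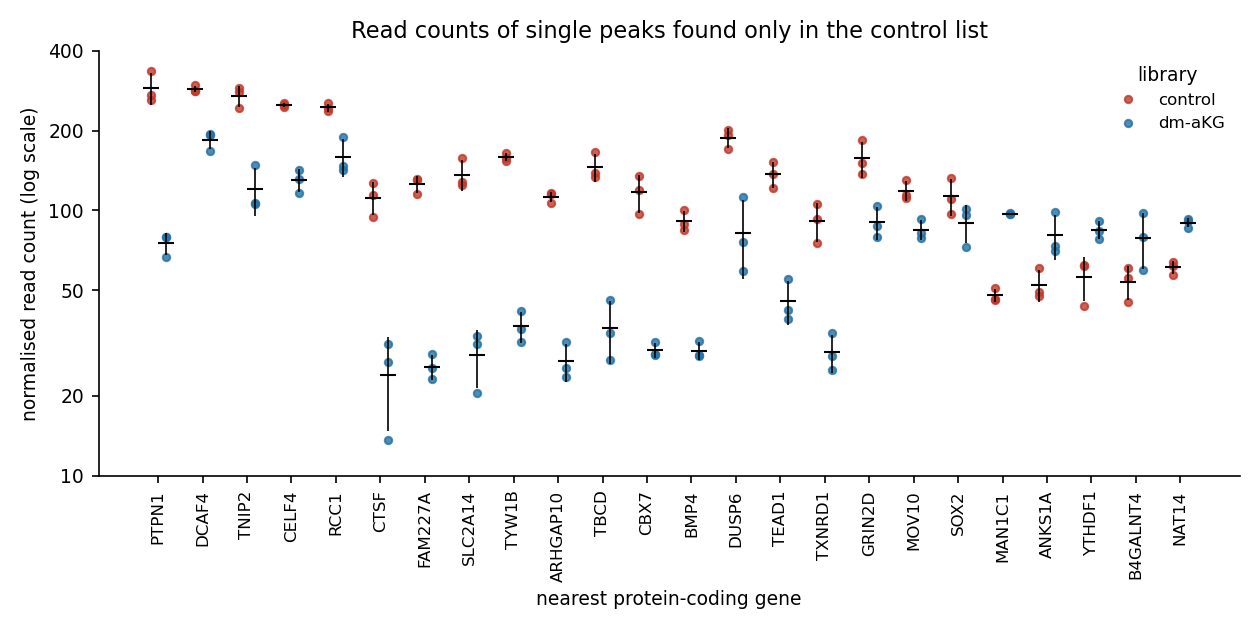
Normalised read counts (log axis) of 24 control-only peaks, named by the nearest protein-coding gene, in the 3 control (red) and 3 dm-αKG (blue) libraries, with the mean and its SD in black. From the left are the 5 strongest, 7 of the 8 deepest losses and 4 peaks of the gene lists. Then come 3 with the OCT-SOX motif and the 5 with the highest fold change, of which MAN1C1 goes from 47.9 to 97.2 reads. Losses and highest fold changes were ranked among members at or above the table's median count.

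Membership followed the strength of a peak. When the rows touching the control list were ordered by mean control count and split into 10 groups of equal size, control-only peaks made up 31.8% and 35.0% of the 2 weakest groups, 10.8% of the fifth, 2.05% of the eighth and 0.0131% of the strongest. The 5 weaker groups held 17905 control-only peaks (89.2%) and the 5 stronger ones 2158. The median log2 fold change of the members was -0.38 in the weakest group and -0.57, -0.57, -0.56 and -0.59 in the fourth to seventh. It was -0.81 in the ninth, which held 64 members. Peaks on both lists stayed between -0.03 and 0.12. Membership was set on the same reads as the fold change, so nothing is read from its course with strength or from the gap to both lists. In the strongest group there were 2 members, the peaks near PTPN1 and in DCAF4.

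**Figure D3:**
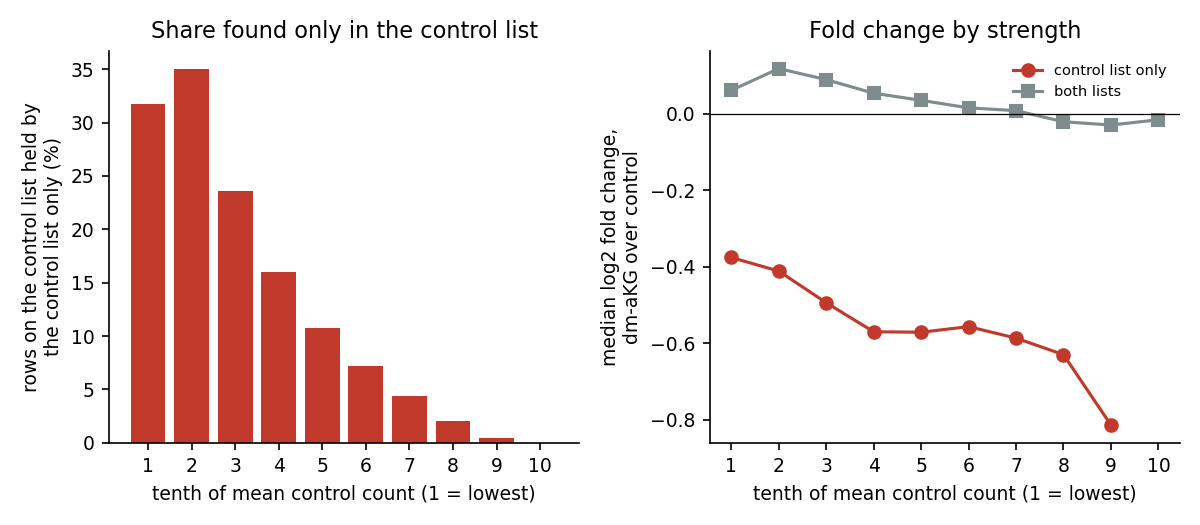
Left, the share (%) of rows on the control list that were control-only, by group of mean control count (10 groups of equal size). Right, the median log2 fold change of control-only peaks (red; not drawn for the last group, with 2 members) and of peaks on both lists (grey) in the same groups. The share goes from 35.0% in the second group to 0.0131% in the last, and the red medians from -0.38 to -0.81.

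The peak caller's own values placed the members in the same range. The control-list fold enrichment over background at the best summit was 6.65 (median; quartiles 4.13 and 8.75), against 9.55 for peaks on both lists, and the median −log10 q-value was 41.1 against 116. The reproducibility score of the list, which runs from 540 to 1000, reached 1000 in 42.1% of control-only peaks and 90.2% of those on both lists that held a control summit. The 8454 members at 1000 had a median log2 fold change of -0.59, and the 4810 in the lowest class of scores had -0.35.

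Control-only peaks were of 2 kinds. In 17721 (88.3%) the whole control interval was free of dm-αKG intervals, and the nearest dm-αKG interval was a median 5844 bp away. The other 2342 (11.7%) were pieces of a control interval that met a dm-αKG interval elsewhere along its length, at a median 68 bp from the row. These flanking pieces were weaker (median 23.4 reads in control and 17.8 with dm-αKG, against 37.2 and 27.1) and lay more often within 1 kb of a transcript start (28.5% against 14.0%). Their median log2 fold change, -0.48, was next to that of the separate peaks, -0.47, while 5.29% against 11.1% were called less accessible.

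At the edge of the rule the values of members and non-members ran into each other. The members with the smallest overlap with a control interval, in CEP97 and STK39, shared 123 and 125 bp with it and had log2 fold changes of 0.07 and -0.44. Those nearest to a dm-αKG interval, 1 bp away, had values of -1.06 (nearest gene C1orf100) and -1.40 (MMP13), on mean control counts of 22.3 and 8.76. Just outside, 2 rows on both lists that shared 1 bp with a dm-αKG interval (nearest genes EXO1 and BUD13) had -0.84 and -0.72 on 8.27 and 23.6 reads.

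Position and sequence were not used by the rule. Shares are given with Wilson 95% intervals, which cover counting error only, since neighbouring peaks are not independent. Control-only peaks were mostly distal: 3147 (15.7%, 15.2 to 16.2) lay within 1 kb of a transcript start in GENCODE, against 40.8% (40.5 to 41.0) of peaks on both lists and 24.7% (24.1 to 25.3) of the dm-αKG list alone. Introns held 47.5% of them, intergenic sequence 32.4% and exons 4.39%. The median distance to a start was 8034 bp, against 2710 bp on both lists and 6346 bp on the dm-αKG list alone. Peaks on both lists were stronger, and among rows with at most 74.0 mean control reads the share near a start was 14.5% of 17905 control-only peaks, 31.9% of 58502 on both lists and 23.5% of 17898 on the dm-αKG list alone.

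Within the members, the 3147 near a start had a median log2 fold change of -0.34, and those in introns and between genes -0.49 and -0.51. Seen from the control list, 5.50% of its rows near a start were control-only, and 18.3% of its intronic and 17.6% of its intergenic rows. Of the 2038 members within 1 kb of a protein-coding start, which belonged to 1570 genes, one sat at the start of KAT6B, a histone acetyltransferase gene, 70 bp from a dm-αKG interval. It had 163, 150 and 148 reads in control and 181, 167 and 175 with dm-αKG, all dm-αKG values above all control values.

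The members were also less rich in G and C. Their central 200 bp had a median GC content of 51.0% (quartiles 46.0 and 56.5) and 3 CpG dinucleotides, against 57.0% and 6 on both lists and 52.5% and 3 on the dm-αKG list alone. Rows of the control list with 30 to 40% GC were control-only in 28.5% of cases, and those with 70 to 80% in 2.88%. The fold change of the members moved with GC, from -0.58 at 30 to 40% to -0.18 at 70 to 80% and 0.08 in the 42 members at 80 to 90%. Peaks on both lists moved the same way, from -0.15 to 0.14 over that range, and the dm-αKG list alone stayed between 0.37 and 0.43. What part base composition had in the read counts was not tested.

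**Figure D4:**
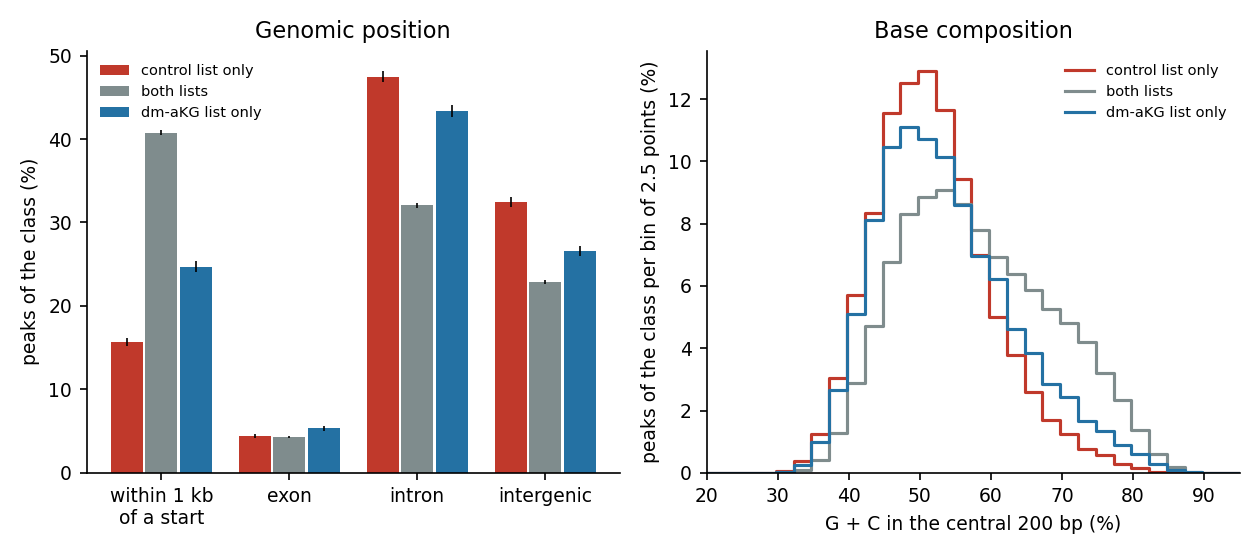
Left, the share (%) of control-only peaks (red), peaks on both lists (grey) and peaks on the dm-αKG list only (blue) by position, with Wilson 95% intervals as bars. Right, their GC content in the central 200 bp (%, bins of 2.5 points). Near transcript starts red (15.7%) lies below grey and blue, in introns (47.5%) and intergenic sequence (32.4%) above both, and its GC content centres on 51.0%.

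Matches to motifs of pluripotency factors were more frequent in control-only peaks than on the other lists. The OCT-SOX composite was found in 157 of them (0.783%, 0.670 to 0.914), against 0.424% (0.391 to 0.461) on both lists, 0.251% (0.189 to 0.334) on the dm-αKG list alone and 0.447% of all peaks. The OCT motif ATGCAAAT alone was in 3.38%, 2.16% and 1.95% of the classes in that order, and the SOX motif AACAATG in 3.61%, 2.26% and 2.37%. At least one of these was present in 1446 control-only peaks (7.21%, 6.86 to 7.57), against 4.54% (4.43 to 4.65) and 4.39% (4.11 to 4.69), and 4.84% of all peaks. Among rows with at most 74.0 control reads the shares were 7.23%, 4.22% and 4.52%. The interval of the control-only peaks (6.86 to 7.62) stayed apart from that of both lists (4.06 to 4.39). In these rows the median GC content was 51%, 54% and 52%, and what part it had in the shares was not tested. Farther than 1 kb from a start the gap to both lists was smaller: the composite was in 0.881% (0.751 to 1.03), 0.635% (0.581 to 0.692) and 0.284%, and any of the motifs in 7.91% (7.51 to 8.33), 6.23% and 5.08%.

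Members with these motifs also had the deeper fold changes, which are a description, since the rule used this contrast. The 1446 peaks with any of them had a median log2 fold change of -0.63 and 17.7% were called less accessible, against 10.5% of all members and 5.16% of all peaks with such a motif. Members without had a median of -0.46. The members with such a motif had a median GC content of 46.5%. All members at 40 to 50% GC had a median log2 fold change of -0.53, with 13.7% called less accessible. What part GC content had in the gap was not tested. Peaks on both lists were shifted too, with a median of -0.14 where they held such a motif and 0.02 where they did not. The 157 members with the composite had -0.68 and 20.4% called, and on both lists the median was -0.24 with it and 0.02 without. In GRIN2D, which encodes an NMDA receptor subunit, the strongest of them had 184, 150 and 137 reads in control and 104, 87.2 and 79.3 with dm-αKG. The peak 961 bp from MOV10, an RNA helicase gene, had 131, 114 and 112, then 78.9, 82.1 and 92.8. At SOX2 itself, 4205 bp from its start, the values were 132, 110 and 97.2, then 73.1, 101 and 95.8. The groups did not overlap at the first 2 and did at SOX2, and none of the 3 was called. The BMP4 peak, in contrast, had 84.1, 100 and 88.7 in control and 32.3, 28.2 and 28.4 with dm-αKG (log2 fold change -1.60, SE 0.22) and was called less accessible. It lay 24044 bp from the start of BMP4, which encodes a bone morphogenetic protein.

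Other motifs were distributed unevenly as well. GGAATG of the TEAD factors was found in 18.5% of control-only peaks, 14.0% on both lists and 14.4% on the dm-αKG list alone, and beyond 1 kb of a start in 19.3%, 17.3% and 15.6%. The 2 strongest members with it, in DCAF4 and CAPN12, had log2 fold changes of -0.63 and -0.42 and were not called. GGGTGTGG of the KLF factors was in 5.21%, 4.18% and 3.83%, but beyond 1 kb in 5.37% (5.04 to 5.72) and 5.05% (4.90 to 5.21) of the first 2 classes, whose intervals overlapped. The strongest member with the KLF motif lay in an exon of MTFR1, a gene of mitochondrial fission, with 243, 245 and 216 reads in control and 103, 118 and 145 with dm-αKG, and was not called. The next lay in an intron of DRD3, a dopamine receptor gene, with 186, 190 and 165 reads in control and 64.5, 70.6 and 80.8 with dm-αKG, and was called less accessible. CCAATCA of NF-Y was in 3.82%, 3.21% and 1.91%, and members with it had a median log2 fold change of -0.61 with 17.5% called less accessible, against 10.5% of all members and 4.72% of all peaks with it. AGATAAG of the GATA factors was in 2.86%, 1.88% and 2.76%.

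The remaining motifs followed no single order. GGGCGGGG of SP factors was in 3.85% against 11.2% and 4.87%, and CCGGAAGT of ETS factors in 0.404% against 1.13% and 0.294%, both being letters common in GC-rich promoters. Beyond 1 kb of a start these shares were 2.94% against 4.91% and 3.07% for SP, and 0.337% against 0.342% and 0.270% for ETS. AGGNGGCGC, part of the CTCF motif, was in 1.87%, 3.85% and 1.89%. TGANTCA, the AP-1 motif of JUN and FOS proteins, was in 6.46% of control-only peaks, 5.91% on both lists and 9.18% on the dm-αKG list alone, and TGTTTAC of FOX factors in 2.75%, 2.72% and 3.84%. Beyond 1 kb the order of the first 2 classes turned for AP-1, with 6.70% (6.33 to 7.08) of control-only peaks, 7.70% (7.51 to 7.88) on both lists and 10.3% on the dm-αKG list alone, and FOX stood at 2.95%, 3.57% and 4.45%. TGACNNNGC of NRF2 (8.74%, 9.62% and 10.1%), CAGCAGG of ZIC factors (10.3%, 10.8% and 10.9%), GCCTNAGGC of TFAP2 factors (1.97%, 2.05% and 2.02%) and the E-box CACGTG (3.22%, 3.81% and 3.31%) differed by less than 1.5 times between the classes. Matches to different motifs can overlap.

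**Figure D5:**
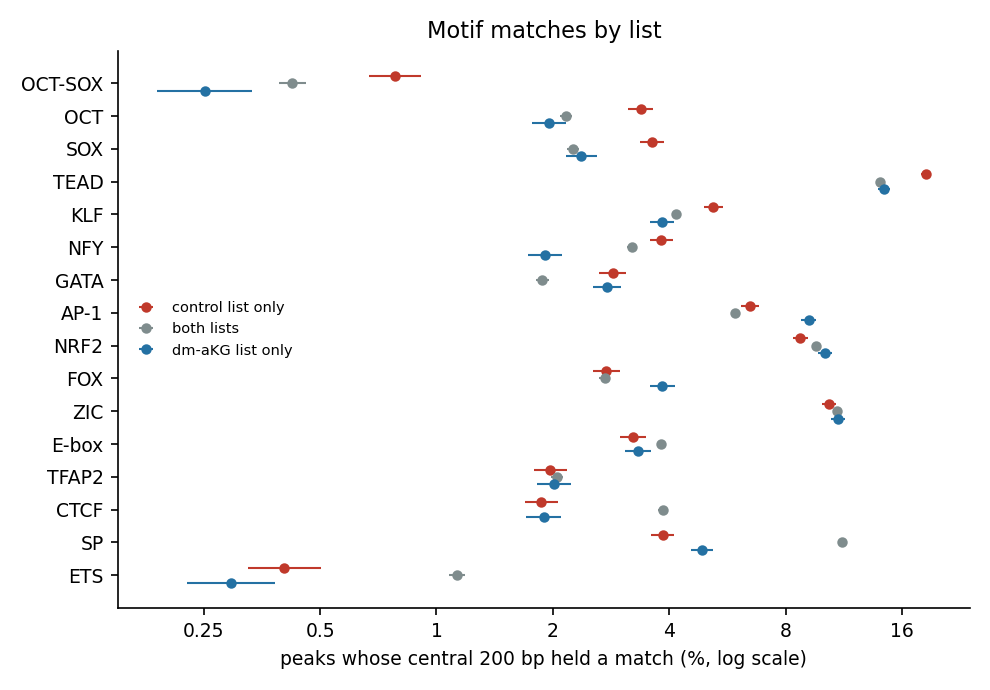
Share of peaks (%, log axis) whose central 200 bp held a match to each of 16 motifs, for control-only peaks (red), peaks on both lists (grey) and peaks on the dm-αKG list only (blue), with Wilson 95% intervals. Red lies highest for OCT-SOX (0.783%), OCT (3.38%), SOX (3.61%), TEAD (18.5%), KLF (5.21%), NF-Y (3.82%) and GATA (2.86%). It lies below grey for SP, CTCF, ETS, NRF2, ZIC, TFAP2 and the E-box.

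Control-only peaks more often carried sequence that recurs at other peaks. A word of 24 bases was counted as shared when it also occurred, on either strand, in the central 200 bp of another peak. Of the control-only peaks 13.2% shared a word with 1 to 9 others and 15.4% (14.9 to 15.9) with 10 or more. On both lists these shares were 11.6% and 7.18% (7.04 to 7.32), and on the dm-αKG list alone 9.25% and 7.84% (7.46 to 8.23). Among rows with at most 74.0 control reads, 15.2%, 9.02% and 7.86% shared a word with 10 or more peaks. The members doing so had a median log2 fold change of -0.57, and the 14322 with no shared word -0.43.

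2 such words are shown, in lower case, because they had the highest share of members among words held by at least 20 of them. The families of like sequence that they mark are not named here.
Word 1: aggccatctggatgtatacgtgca
Word 2: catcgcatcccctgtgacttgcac

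Word 1 occurred in 33 peaks, of which 20 (60.6%) were control-only, 13 lay on both lists and 0 on the dm-αKG list alone. Its members, on 13 chromosomes, had a median of 59.1 reads in control and 31.9 with dm-αKG, and 10 of the 20 were called less accessible. Word 2 occurred in 44 peaks, of which 21 (47.7%) were control-only, with medians of 46.8 and 17.6 reads and 12 called less accessible. Of all members 10.5% were called less accessible, and of all peaks 1.96%. Among members sharing a word with 10 or more other peaks the called share was 13.9%. Both words were picked for their high share of members, so their called counts do not stand for shared words in general. The next 2 words by the same rule, held by 23 and 21 members, had median log2 fold changes of -0.76 and -0.32, and none of their members was called. Reads from repeated sequence are harder to place, and what part this had in the counts was not tested.

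Genes were tied to peaks through regulatory domains, which reach 5 kb before and 1 kb after a gene's start and then up to 1 Mb to the next such domain. Of 20038 protein-coding genes, 11782 (58.8%) had at least 1 control-only peak in their domain. JARID2, a cofactor of Polycomb repressive complex 2, had the most, 35 of its 166 peaks. HS6ST1 (a heparan sulfate sulfotransferase) and TENM3 (a neuronal adhesion protein) had 23 each, and ARID1B, a subunit of the BAF chromatin remodeller, and FUT8, a fucosyltransferase, 21 each. Domains of the genes named here often run past other genes, and a peak in a domain is not shown to act on the gene.

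Domains of 23 naive and general pluripotency factors held 162 control-only peaks among 1087 peaks (14.9%, 12.9 to 17.1), against 11.7% in the whole table. Of the 162, 24 (14.8%) were called less accessible, against 10.5% of all members, and their median log2 fold change was -0.52, against -0.47 for all members. Of the 24, 5 lay in the NANOG domain and are not separate sites, as described below. Peaks of a domain are not independent. Nothing is read from the gap between the called share of this or a later list and that of all members. TBX3 had 19 of 97 peaks, TFAP2C 16 of 120, ESRRB 15 of 56, KLF5 15 of 96, KLF4 13 of 83 and SOX2 11 of 77. At TBX3, a T-box factor of naive cells, the strongest member had 119, 123 and 89.9 reads in control and 67.4, 85.9 and 47.9 with dm-αKG. At KLF5 it had 98.4, 122 and 85.0, then 106, 101 and 114. The groups were apart at TBX3 and overlapped at KLF5, and neither peak was called.

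NANOG, a core factor of pluripotency, had 6 control-only peaks among 35, and 5 of the 6 were called less accessible (described after the values were seen). These 5 lay in introns of the neighbouring SLC2A14 and are not 5 separate sites: a pair of them are neighbouring pieces of control-list sequence that meets a dm-αKG interval elsewhere (199 and 415 bp away), and another pair lie close together near the gene's start. The strongest, at chr12:7882488-7882687, had 259, 236 and 174 reads in control and 85.3, 71.8 and 91.3 with dm-αKG. At chr12:7863118-7863317 the values were 224, 241 and 196, then 61.0, 65.4 and 64.4 (log2 fold change -1.81, SE 0.15). The 5 had log2 fold changes of -1.09 to -2.22, and in each all control values lay above all dm-αKG values. Their sequences shared words with 2 to 19 other peaks, and SLC2A14 has a near copy, SLC2A3, close by, so reads of the 2 could have been split between them. The sixth, in NANOGNB, had 41.1, 34.5 and 54.7, then 36.6, 25.7 and 19.5, with the groups overlapping.

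Among signalling lists, the domains of 12 NODAL and TGF-β pathway genes held 47 control-only peaks among 379 (12.4%, 9.46 to 16.1), of which 10 (21.3%) were called less accessible, against 10.5% of all members and 1.96% of the table. SMAD7, an inhibitor of the pathway, had 12 members, and the signal transducers SMAD3 and SMAD2 11 and 10. The strongest in the SMAD3 domain had 134, 141 and 136 reads in control and 60.2, 56.4 and 73.3 with dm-αKG and was called less accessible. In the domains of SMAD7, SMAD2 and ACVR2A the strongest members had log2 fold changes of 0.13, -0.68 and -0.79 and were not called. The 12 YAP and TEAD target genes had 39 of 301 (13.0%), with 4 of the 39 called (10.3%). In an intron of TEAD1 itself the strongest had 137, 122 and 152, then 42.3, 55.2 and 38.9 (log2 fold change -1.59, SE 0.18), and its sequence held the TEAD motif. In the domains of LATS2, AMOTL2 and WWTR1 the strongest members had log2 fold changes of -0.56, -0.37 and -0.68 and were not called. The JUN and FOS genes had 21 of 232 (9.05%), 1 called, with a median log2 fold change of -0.08, the nearest to 0 of the 13 lists.

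Of the lists for other cell states, the 10 primed pluripotency genes had the highest share, 40 of 214 peaks (18.7%, 14.0 to 24.5), with 9 of the 40 (22.5%) called less accessible, against 10.5% of all members. Of the 9, 4 lay in the domain of CD24 alone. At DUSP6, a phosphatase of ERK, the strongest had 171, 192 and 202 reads in control and 76.0, 59.0 and 112 with dm-αKG. In the domain of THY1, in an intron of NECTIN1, it had 146, 148 and 131, then 46.6, 26.9 and 50.9. Both were called less accessible. The strongest in the CD24 domain (log2 fold change -0.78, groups overlapping) was not called. The trophectoderm list had 50 of 526 (9.51%) with 3 called, primitive endoderm 32 of 306 (10.5%) with 1, primitive streak and mesoderm 25 of 235 (10.6%) with 3, amnion 28 of 202 (13.9%) with 1 and fibroblast 24 of 163 (14.7%) with 2. The intervals of these 5 membership shares all included the 11.7% of the table, and their called shares, 3.12% to 12% of members, stand beside 10.5% of all members.

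For genes of metabolism and chromatin, the called shares stand beside 10.5% of all members and 1.96% of all peaks. Nothing is read from counts on so few members. The NRF2 target genes, which answer oxidative stress, had 15 of 187 (8.02%, 4.92 to 12.8) with 3 of the 15 (20%) called less accessible. In an intron of TXNRD1, thioredoxin reductase, the strongest had 106, 92.9 and 75.3 reads in control and 25.1, 28.2 and 34.4 with dm-αKG (log2 fold change -1.69, SE 0.23), and its sequence held the OCT motif and shared words with 23 other peaks. The strongest in the GCLC domain (-1.28) was called too. In the domains of SLC7A11 and HMOX1 the strongest members had log2 fold changes of -0.59 and -0.09 and were not called. The 15 genes of the tricarboxylic acid cycle and of acetyl-CoA had 13 of 167 (7.78%, 4.61 to 12.9), none of them among the called peaks. Of the 13, 12 had a fold change below 0, beside 86.3% of all members. At IDH2, which makes α-ketoglutarate in mitochondria, the strongest had 78.7, 90.4 and 79.0, then 54.5, 41.0 and 40.4. The histone acetyltransferases and deacetylases had 42 of 303 (13.9%, 10.4 to 18.2) with 2 of the 42 (4.76%) called. Of these, 1 lay in an intron of the acetyltransferase gene CREBBP (61.1 to 25.9 reads on average). The strongest members in the domains of KAT6B, HDAC4 and SIRT1 were not called.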

How the data were processed

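ATAC-seq libraries of 3 control and 3 dm-αKG samples were analysed from the deposited files. The authors aligned reads to hg38 with Bowtie2 and called peaks with MACS2 in the ENCODE pipeline, once per group, keeping peaks reproducible between replicates (IDR). The deposited lists, pooled over replicates, give a score, a fold enrichment, a −log10 q-value and a summit per line. The deposited table gives raw read counts in rows made by the authors from 200 bp around the summits of both lists, merged where they overlapped. Here, counts were scaled by TMM and fitted in R 4.3.3 with the quasi-likelihood test of edgeR 4.0.16, treatment alone, with Benjamini-Hochberg adjustment over all 171517 rows. Called rows had an adjusted p below 0.01 and a log2 fold change beyond 1. DESeq2 1.42.0, other scalings, filters, thresholds and definitions of membership were alternatives. The fit was tested on simulated data. Overlaps came from bedtools 2.31.1, genes from GENCODE 44 and sequence from an unmasked hg38, without repeat annotation. Peaks are named by the nearest protein-coding start. Named are the strongest members, the deepest losses and highest fold changes among members at or above the table's median count, the strongest member at up to 4 genes of each list, the strongest with the OCT-SOX, TEAD or KLF motif, and those at the edge of the rule. The members, gene lists and motifs were chosen with earlier results of these data known, and the shared words, the NANOG peaks and the comparison among weaker rows were added after the values were seen. A few peaks and sequences are not reported here. Same-numbered libraries did not deviate together. P-values measure the spread between these 3 libraries per group.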

Additional observations from a re-analysis of the deposited data

How the results depend on the processing

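The 2097 control-only peaks called less accessible became 1359 with DESeq2, which gave 1790 members no adjusted p, and stayed within 1.5 times of 2097 under the other scalings, filters and thresholds. Leaving out single libraries gave 1544 to 2206, and no library moved the count by more than 1.5 times. The median log2 fold change was -0.41 for members with at least 10 reads in every library, a filter that removes the members with fewest reads after dm-αKG. The calls of more accessible members, 1 in the fit reported, were 2 with libraries thinned to the smallest total, with an adjusted p below 0.05 or with no fold threshold, and 0 to 2 when single libraries were left out: 0 without control replicate 1 or 3, and 2 without dm-αKG replicate 1. The share of library counts in the members ranged from 4.39% to 4.43% in control and 3.17% to 3.22% with dm-αKG when a library was left out.

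Membership by summits in place of intervals gave 26358 members, with 6 called more accessible, a median log2 fold change of -0.40, 22.8% near a transcript start, 6.04% with an OCT-SOX, OCT or SOX motif and a GC content of 52.5%. Keeping control intervals at or above the median fold enrichment gave 7886 members, with 1130 called less and 0 more accessible, a median log2 fold change of -0.58, 13.2% near a start and 8.06% with a motif. Extending dm-αKG intervals by 250 bp gave 13.4% near a start and 7.76% with a motif. Counting protein-coding starts alone gave 10.2%, and 1 mismatch more for OCT-SOX gave 10.3% with a motif. The cause of these moves was not tested.

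The labels number the replicates alike in both groups. The deviations of same-numbered libraries correlated at -0.0157, -0.000899 and 0.0134, so no shared effect of the number was seen in the counts. These values cannot tell whether the libraries were prepared in pairs, which the labels do not give. With the replicate number as a block, 2027 members were called less and 1 more accessible, with a median log2 fold change of -0.47. Of 1037 fold changes of named peaks under the alternatives, 1018 moved by less than the spread between replicates, and the 15 that changed sign were of peaks not called.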
